A study of Mus musculus with 13 samples.

Results

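Pools of mouse aortae that were rich in thymocyte transcripts were compared with pools that were poor in them. Thymocytes are the developing T cells of the thymus. The 8 pools compared, of 12 in the series (9 of 13 arrays), were selected on the measured signal itself. The 4 pools taken as highest in thymocyte transcripts were CT18, CT38, CT54 and CT62, where CT is circadian time in hours. The 4 taken as lowest were CT26, CT34, CT42 and CT50. CT22, CT30, CT46 and CT58 were left out of the contrast. By the mean log2 intensity of the markers Rag1, Cd3g, Cd8b1 and Satb1, CT22, CT46 and CT58 lie between the sets. CT30 (8.95) stands above CT62 (8.72) by this mean, although CT62 is in the rich set. Because the pools were chosen by these transcripts, every difference between the sets is given as a description without a test.

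The mice were of the strain that the labels call c57/Bl6, an inbred laboratory strain, with no mutation or treatment named and neither age nor sex given. All were housed for 2 weeks with 12 h of light and 12 h of dark, then for 36 h in constant darkness, and aortae were then collected 4 h apart over 48 h. Every time point is a single pool of 6 aortae, so there are no replicate pools and the spread between mice is not visible. CT18 was hybridised to 2 arrays, which were averaged on the log2 scale as 1 pool, and the labels do not say whether both came from the same pool. Per the labels all pools had the same treatment and differ in the time of collection. Folded onto a day, the thymus-rich pools stand at circadian hours 18, 14, 6 and 14 and the thymus-poor pools at 2, 10, 18 and 2. The sets are therefore not balanced over the day, since both pools of hour 14 are rich and both pools of hour 2 are poor.

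Each value is the intensity of a probe set, a group of short oligonucleotides that reads 1 transcript, on a linear scale. The values as deposited had the same trimmed mean, 200.2, on every array. Values under 36.7, the 20th percentile of all positive intensities, were set to this floor, and a gene at the floor has only an upper bound there. Of 8252 genes on the array, 5655 passed a filter on mean intensity of 48.5, and in a pool 2.15% to 6.02% of the probe sets kept were at the floor. A difference is the mean log2 intensity of the 4 rich pools minus that of the 4 poor pools, and SDs on the log2 scale are over 4 pools. Intensities of different probe sets are not comparable with each other, so levels are compared between pools only.

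In the thymus, immature T cells cut and rejoin the gene segments of the T-cell receptor, a process called V(D)J recombination, in which the RAG proteins cut the DNA and the enzyme encoded by Dntt adds bases at the joints. The receptor chains reach the cell surface with the CD3 proteins, and many thymocytes carry both the CD4 and the CD8 coreceptor and divide before they are selected. The thymus lies in the upper chest close to the arch of the aorta, and a normal arterial wall holds few T cells and is not a site of T-cell development. In pooled tissue, fewer cells of a type and less RNA per cell cannot be told apart.

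The start regions of 3 genes that were higher in the rich pools are shown first: Rag1 and Dntt, which act in recombination, and Cd3g, a chain of the receptor complex. Rag1 and Cd3g are among the 4 markers, and Dntt is not. Each start region is the stretch of 250 bases before the transcription start, written 5' to 3' on the strand of the gene, from RefSeq for mouse build GRCm38.p6. Rag1 lies at chr2:101649533-101649782 on the minus strand, Dntt at chr19:41029025-41029274 on the plus strand and Cd3g at chr9:44980432-44980681 on the minus strand. Capitals mark matches on either strand to 4 motifs that were picked after the expression values were seen. The first is CAGCTG, the E-box letters read by E proteins such as those encoded by Tcf3 and Tcf12. The next is TGTGGT, the core letters that factors of the RUNX family recognise in the genes of blood cells. The third is AGGAAG, a core read by proteins of the ETS family such as the one encoded by Ets1. The last is TATAAA, the letters of the TATA box found before some transcription starts.
Rag1: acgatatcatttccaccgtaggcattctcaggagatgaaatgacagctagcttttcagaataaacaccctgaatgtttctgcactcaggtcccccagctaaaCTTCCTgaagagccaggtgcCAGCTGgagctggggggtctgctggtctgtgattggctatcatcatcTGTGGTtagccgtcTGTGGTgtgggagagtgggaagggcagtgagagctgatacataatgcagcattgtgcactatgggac
Dntt: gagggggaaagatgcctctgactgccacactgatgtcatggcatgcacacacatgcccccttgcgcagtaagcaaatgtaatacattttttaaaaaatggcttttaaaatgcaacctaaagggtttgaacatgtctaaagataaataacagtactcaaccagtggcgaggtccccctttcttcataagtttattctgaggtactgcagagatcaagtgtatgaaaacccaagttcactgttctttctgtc
Cd3g: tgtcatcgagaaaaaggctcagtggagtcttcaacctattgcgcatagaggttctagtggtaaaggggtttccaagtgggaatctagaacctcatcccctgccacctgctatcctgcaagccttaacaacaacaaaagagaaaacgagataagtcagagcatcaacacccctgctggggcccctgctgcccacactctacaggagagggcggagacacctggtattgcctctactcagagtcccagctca
The Rag1 window held 1 CAGCTG, 2 TGTGGT and 1 AGGAAG, while those of Dntt and Cd3g held none of the 4. Of the 53 genes described below as higher in the rich pools, 43 had an entry in the promoter table. CAGCTG occurred in 9.3% of these 43 windows against 12.8% of all 27025 windows in the table, TGTGGT in 9.3% against 14.2%, AGGAAG in 25.6% against 29.2%, and TATAAA in 9.3% against 13%. These shares describe letters in a window of fixed length, and the arrays carry no measurement of binding.

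Rag1, which encodes the subunit of the recombinase that binds and cuts DNA, had the largest difference between the sets among genes read by their brightest probe set. It read 1199 at CT18, 1341 at CT38, 1460.2 at CT54 and 991 at CT62, and it lay at the floor at CT26 and CT42, with 212 at CT34 and 244 at CT50. All 4 rich pools exceeded all 4 poor pools, and the lowest rich pool stood well clear of the highest poor one. The difference was 3.76 (log2), with an SD of 0.24 in the rich pools and 1.52 in the poor ones. This is at least 13.5-fold, because 2 poor pools were at the floor.

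Cd8b1, a chain of the CD8 coreceptor, had the next largest difference of the markers, 3.17. Its intensities were 582, 714, 786 and 483 at CT18, CT38, CT54 and CT62, against the floor at CT26 and CT42, 139.5 at CT34 and 129 at CT50. Satb1, a protein that organises chromatin in thymocytes, read 1053, 1164, 1090.2 and 658 in the same rich pools. In the poor pools it read 65.4 at CT26, 304 at CT34, 75.8 at CT42 and 179 at CT50, above the floor throughout, and its difference was 2.92. Cd3g read 172, 124, 133 and 100.4 in the rich pools and the floor, 69.7, the floor and 71 at CT26, CT34, CT42 and CT50, a difference of 1.35. In all 4 genes the poor pools split into a pair at or near the floor, CT26 and CT42, and a pair with intermediate values, CT34 and CT50.

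**Figure D1:**
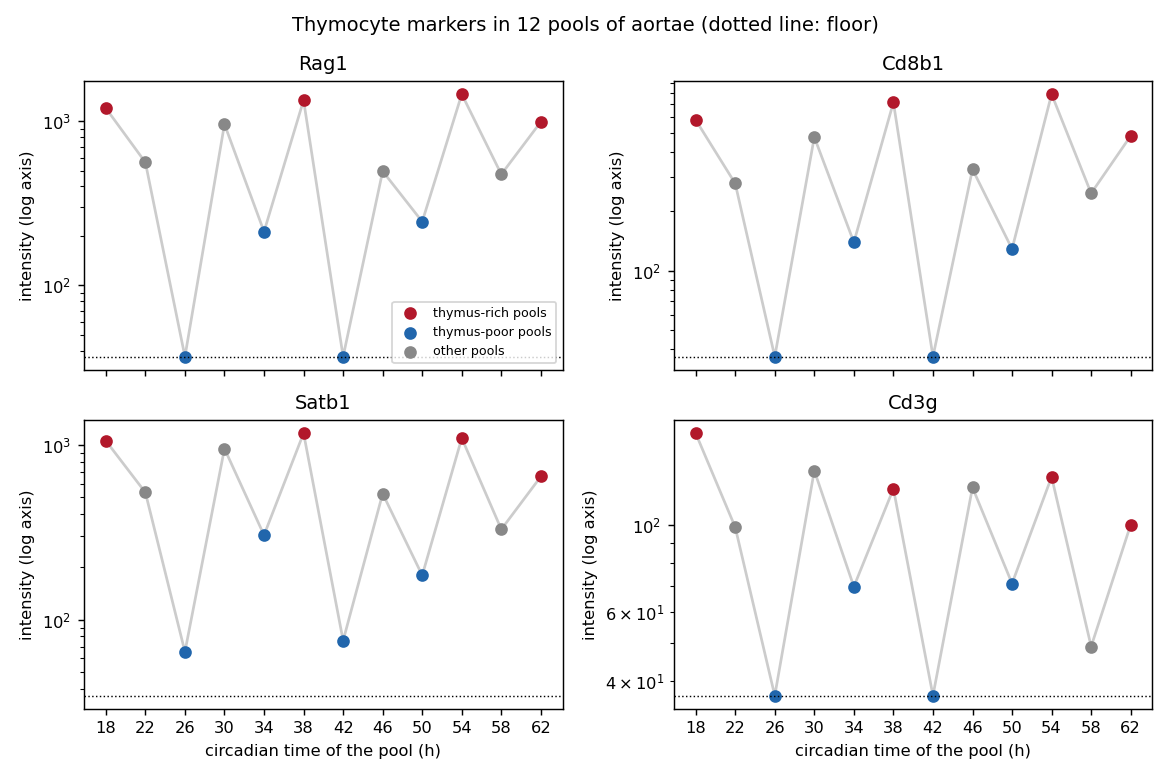
Intensity of Rag1, Cd8b1, Satb1 and Cd3g (log axis) against the circadian time of the 12 pools in hours, with 1 point per pool, thymus-rich pools in red, thymus-poor pools in blue, the other pools in grey and the floor of 36.7 dotted. Rag1, Cd8b1 and Cd3g lie on the floor at CT26 and CT42, and CT30 lies above CT62 for Satb1 and Cd3g and just below it for Rag1 and Cd8b1.

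The 12 pools form a graded series and not a pair of separate classes. Ranked by the mean log2 intensity of the 4 markers, CT54 (9.32), CT38 (9.25) and CT18 (9.22) came first. CT30, which is outside the contrast, followed with 8.95 and stood above CT62, the lowest rich pool, with 8.72. CT46 (8.33), CT22 (8.23) and CT58 (7.70) came next, then CT34 (7.31), CT50 (7.14), CT42 (5.46) and CT26 (5.41). By Rag1 and Cd8b1, CT62 and CT30 were close, with Rag1 at 991 and 958 and Cd8b1 at 483 and 476, while by Satb1 (658 and 949.7) and Cd3g (100.4 and 138) CT30 was the higher. At the other limit, CT58 stood just outside the poor set, with Rag1 at 474 against 244 at CT50, although its Cd3g of 49 lay below that of CT34 and CT50.

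A gene was said to follow the thymocyte signal when its 4 rich and 4 poor pools did not overlap and the difference was at least 2-fold. By this rule 53 of 5655 genes (0.937%) were higher in the rich pools and 4 (0.0707%) were lower. The median difference of all genes was -0.02, that of the 53 higher genes was 1.44, and these ranged from 1.05 to 3.76. Genes just inside the limit were Trim59, Ilvbl and Bach1, each at 1.05, and just outside stood Ctcf at 1.00, Cks1b at 0.99 and Pcna at 0.96. Of the 53 genes, 34 had a poor pool at the floor, and 7 had all 4 poor pools there. For 31 of the 34 the difference is therefore a lower bound, while for Sspo, Muc1 and Ube2f a CT18 array was at the floor too and the difference has no bound. Probe sets whose names carry a design suffix (s, f, r, i, g or x) stood for 11 of the 53. Among them were those used for Cd8b1, Myb, Dntt, Trbv1, Hmgb2 and Mki67, and some of these suffixes mark possible cross-hybridisation. Of 9 other probe sets kept for the higher genes, 5 met the rule upward and 7 had a difference above 0.

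**Figure D2:**
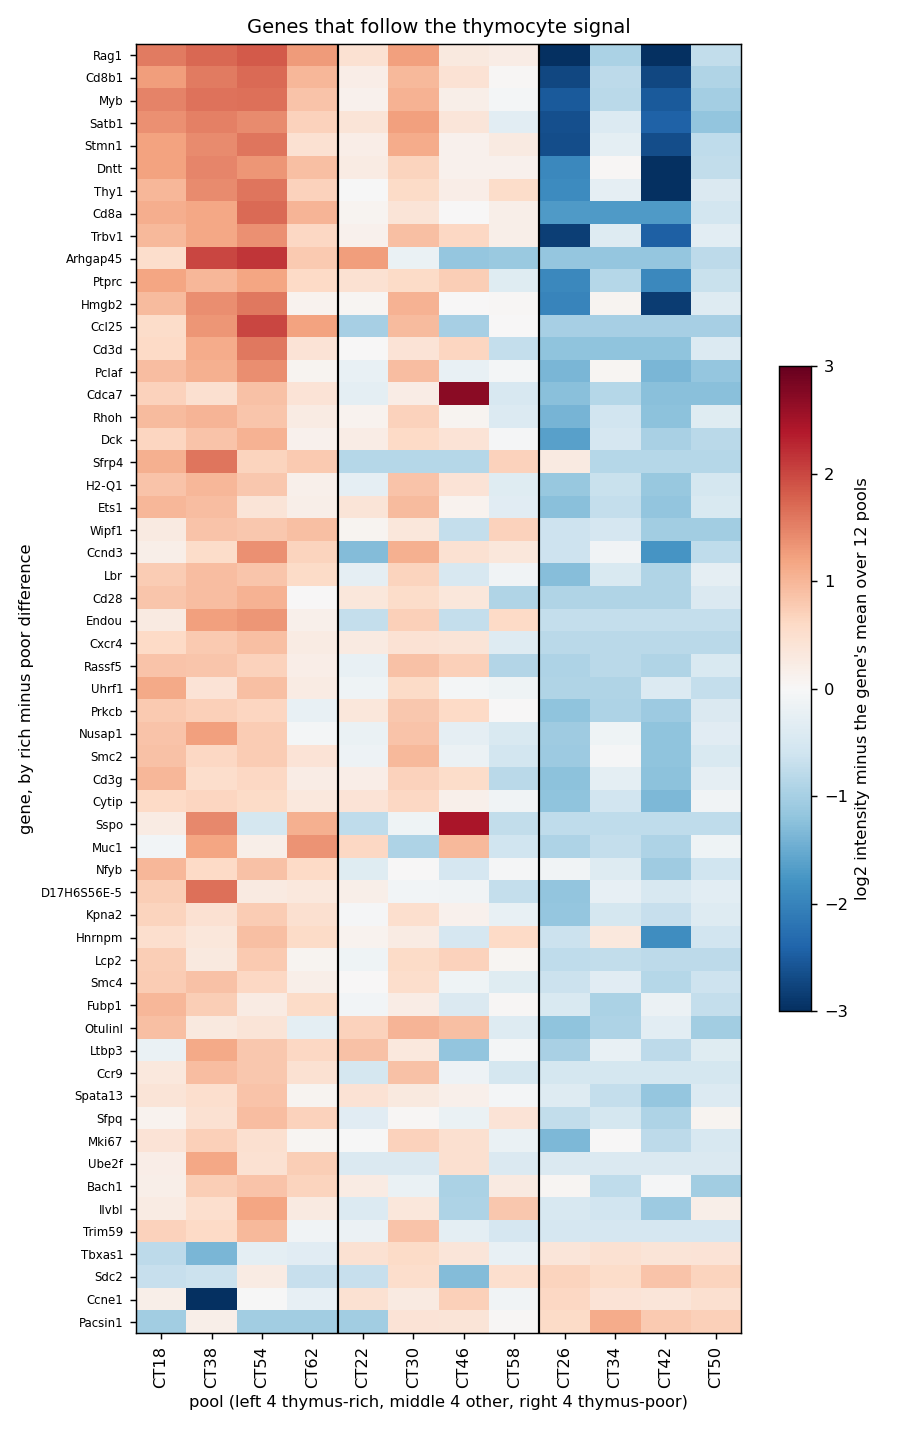
Each row is 1 of the 53 genes higher or 4 genes lower in the thymus-rich pools, ordered by the log2 difference, and each column is a pool, with the 4 rich pools on the left, the 4 other pools in the middle and the 4 poor pools on the right. Colour is log2 intensity minus the mean of the gene over 12 pools and saturates at 3 and -3; CT26 and CT42 are the deepest blue for the genes at the top, and CT30 is the reddest of the middle pools for many of them.

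Rag1, Dntt and Hmgb2 were the recombination genes higher in the rich pools. Of the 9 listed recombination and end-joining genes on the array 5 passed the filter. The rule was met by 3 of these, against 0.937% of all genes, and the median difference of the 5 was 2.29. Dntt, which encodes terminal transferase, read 904, 1083, 981 and 742 at CT18, CT38, CT54 and CT62. In the poor pools it read 103 at CT26, 404 at CT34, the floor at CT42 and 235 at CT50, without overlap, and the difference was 2.74. Both other Dntt probe sets were also higher, by 3.38 and 1.57.

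Hmgb2, a DNA-bending protein that assists the recombinase and is abundant in dividing cells, read 533, 729, 833 and 299 in the rich pools. Its poor pools read 69.9, 295, 38.6 and 212 at CT26, CT34, CT42 and CT50, so that CT62 and CT34 almost touched, and the difference was 2.29. Xrcc6, the Ku70 subunit that holds broken ends in every cell type, read 352 to 494 in the rich and 177 to 279.5 in the poor pools. Its sets stood apart, but the difference of 0.92 was below the limit. Polm, a polymerase of end joining, overlapped, with a difference of -0.29.

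Rag2, the partner of Rag1, was at the floor in 3 of the 4 rich pools and read 56.5 at CT38, and it did not pass the filter. Prkdc, Xrcc5 and Atm, which repair the cuts, also failed the filter, each at the floor in at least 3 of the 4 rich pools. Whether these genes differ between the pools was not measurable with these probe sets. A second Rag1 probe set ran the other way, at 259 to 303 in the rich and 354 to 488 in the poor pools (difference -0.55). Its name carries a design suffix (r), and the values are given because the 2 probe sets of the gene disagree.

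Receptor chains and CD3 genes divided into members that followed the signal and members that did not. Of 13 on the array 9 passed the filter and 3 were higher by the rule, against 0.937% of all genes. The median difference of the 9 was 0.53. Trbv1, by a probe set annotated to this variable segment of the T-cell receptor beta chain, read 3370 at CT18, 3855 at CT38, 4413 at CT54 and 2647 at CT62. In the poor pools it read 242 at CT26, 1319 at CT34, 312 at CT42 and 1387 at CT50, a difference of 2.53. Probe sets for receptor segments can read related segments or shared exons, so that the segment named is uncertain.

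Cd3d, a signalling chain that lies next to Cd3g in the genome, read 129, 185, 256 and 114 in the rich pools and the floor in 3 poor pools, with 63.9 at CT50. Its difference was 1.95. Cd3e, in the same gene cluster, failed the filter, at 51.6, 83.2 and 166 in CT18, CT38 and CT54 and at the floor in CT62 and in all 4 poor pools. Trbv13-2, another beta-chain segment, read 229.7 to 400.4 in the rich and 173 to 212 in the poor pools, apart but by only 0.76.

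Trav9d-3, an alpha-chain segment, had a difference of 0.53 and overlapped, because CT62 at 328 lay below CT50 at 359.7. Trav6-2 and Trgv1, an alpha and a gamma segment, had differences of 0.00 and -0.06, and both overlapped. Ptcra, the stand-in alpha chain of immature thymocytes, overlapped as well, with 78.5 at CT18 and 264 at CT50 (difference -0.13). Cd247, the zeta chain of the complex, read 41.4 to 93.2 in the rich and 63.9 to 96.6 in the poor pools by its brightest probe set (-0.24), and 47.4 to 110 against the floor to 47.6 by a dimmer one. Thus the probe sets of the listed receptor and CD3 genes did not move together on this array. The 2 Cd247 probe sets differed in direction (-0.24 and 0.77), and Ptcra read 36.7 and 168 on the 2 CT18 arrays. Whether the genes or only their probe sets differ was not tested.

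Among coreceptors and other surface proteins of T cells 10 genes passed the filter, of 14 on the array. By the rule 5 of the 10 were higher, against 0.937% of all genes, and the median difference was 1.25. Cd8a, the other CD8 chain, read 255, 268, 387 and 242 in the rich pools and the floor in 3 poor pools, with 81.4 at CT50 (difference 2.66). Thy1, a surface glycoprotein of thymocytes, read 778, 1041, 1177 and 628 against 105, 322, the floor and 288 at CT26, CT34, CT42 and CT50 (2.68). The rich and poor values of both genes were far apart.

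Ptprc, which encodes the leukocyte phosphatase CD45, had a difference of 2.33, with 210.3 to 316 in the rich pools and the floor to 88.1 in the poor ones. Cd28, a costimulatory receptor, had 1.49, with 69.1 to 141 against the floor to 50.8. Cd4 did not follow. Its 392, 393, 395 and 156 at CT18, CT38, CT54 and CT62 overlapped 289 to 338 in the poor pools, with a difference of -0.03. The overlap came from CT62, but the other rich pools exceeded the poor pools by far less than 2-fold. Ly6d, a small surface protein, had a difference of 1.01 and overlapped.

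Transcription factors of thymocytes and genes of receptor signalling were mixed. Of 10 factors past the filter, of 14 on the array, 3 were higher, against 0.937% of all genes, with a median of 0.09. Myb, a factor needed for early T-cell development, had a difference of 3.13, the third largest among genes read by their brightest probe set. It read 598, 654, 667 and 381 in the rich pools and the floor, 121, the floor and 104 at CT26, CT34, CT42 and CT50. Ets1 read 98.6 to 174 against the floor to 63.1 (1.53). Tcf12, an E protein, was apart at 587 to 691 against 399 to 501, by 0.55. Notch1, Lef1, Sox4, Id3 and Tcf3 overlapped, with differences from -0.50 to 0.12, and Gata3 and Runx1 failed the filter.

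In receptor signalling 3 of 10 genes past the filter, of 15 on the array, were higher, against 0.937% of all genes. The median was 0.23. Rhoh, a small GTPase of blood cells that is required for receptor signalling, read 160 to 273 in the rich and 51.4 to 105 in the poor pools (1.65). Prkcb, a protein kinase C, read 164 to 330.2 against 82.5 to 142 (1.39). A dimmer Prkcb probe set overlapped, at the floor to 83.7 against 53.8 to 67.1 (0.01). Lcp2, the adaptor SLP-76, read 66.6 to 109 against the floor to 37.8 (1.24). Zap70, the kinase that binds the CD3 chains, had 3 probe sets that disagreed. The brightest was at -0.66 with overlap, another at 0.20 with overlap, and the dimmest met the rule upward at 1.18, from 36.8 at CT18 to 208 at CT54 against the floor in all 4 poor pools. Lat, the adaptor downstream of it, was at 0.07, and Fyn, a kinase present in many tissues, at -0.01.

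Receptors that guide thymocytes, and a ligand made by the thymic stroma, were among the followers. Of 6 homing and survival receptors past the filter, of 11 on the array, 2 were higher, against 0.937% of all genes. The median was 0.35. Ccr9, a chemokine receptor of thymocytes, read 66.2, 101, 93.3 and 72.6 in the rich pools and lay at the floor in all 4 poor pools, at least 2.23-fold lower there. Cxcr4, another chemokine receptor, read 97.2, 111, 121 and 75.7 and was likewise at the floor in all poor pools, a difference of at least 2.71-fold. Il7r (0.19) and S1pr1 (-0.02), receptors for interleukin-7 and for the lipid that guides exit from the thymus, overlapped.

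Ccl25, the chemokine of thymic epithelium that binds Ccr9, read 108 at CT18, 186 at CT38, 296 at CT54 and 169 at CT62. It was at the floor in all 4 poor pools, so the rich pools were at least 4.84-fold higher. Of 6 thymic epithelium genes past the filter, of 10 on the array, only Ccl25 met the rule, which 0.937% of all genes met upward. The summed intensity of the list overlapped, at 783 to 989 in the rich and 543 to 956 in the poor pools. The median difference of the 6 was 0.10.

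Genes of dividing cells were mostly higher in the rich pools, and most of them by less than 2-fold. Of 53 genes in the DNA replication, mitosis and chromatin lists that passed the filter, of 86 on the array, 45 had a difference above 0, against 45.6% of all genes. The rule was met upward by 6 (11.3%), against 0.937% of all genes, and downward by 1, against 0.0707%. The median was 0.34. In the T-cell lists described above 19 of 50 genes met the rule. Without the 4 markers it was 15 of 46, against 0.937% of all genes. The pools were chosen on thymocyte transcripts, so leaving out the markers does not make these counts independent of that choice.

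Mitosis contributed 5 of the 6 genes, out of 24 past the filter, with a median of 0.50, where 0.937% of all genes met the rule upward. Stmn1, a regulator of microtubules, read 536, 624, 707 and 317 at CT18, CT38, CT54 and CT62. Its poor pools read the floor, 190.2, the floor and 137 at CT26, CT34, CT42 and CT50, a difference of 2.77. Nusap1, a spindle protein, read 102 to 251 against 46.7 to 98 (1.38), and Smc2 and Smc4, the core subunits of condensin, had differences of 1.36 and 1.22. Mki67, the proliferation antigen Ki-67, read 191 to 302 against 72.7 to 184 (1.07), and a dimmer probe set of it read 119.8 to 347 against the floor to 66.9.

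Uhrf1, which guides maintenance of DNA methylation, was the 1 chromatin gene of 9 that met the rule, at 80.6 to 149.6 against the floor to 51.3 (1.41). H2az1, a histone variant, stood apart at 989 to 1208 in the rich pools against 628 to 861, but by only 0.63. In DNA replication 0 of 20 genes were higher by the rule, against 0.937% of all genes, with a median of 0.11. Pcna, the sliding clamp, came nearest among those whose sets stood apart, at 455 to 692 against 185 to 367 (0.96). Top2a, a topoisomerase, was higher by 1.05 without overlap but failed the filter on mean intensity, with all 4 poor pools at the floor.

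**Figure D3:**
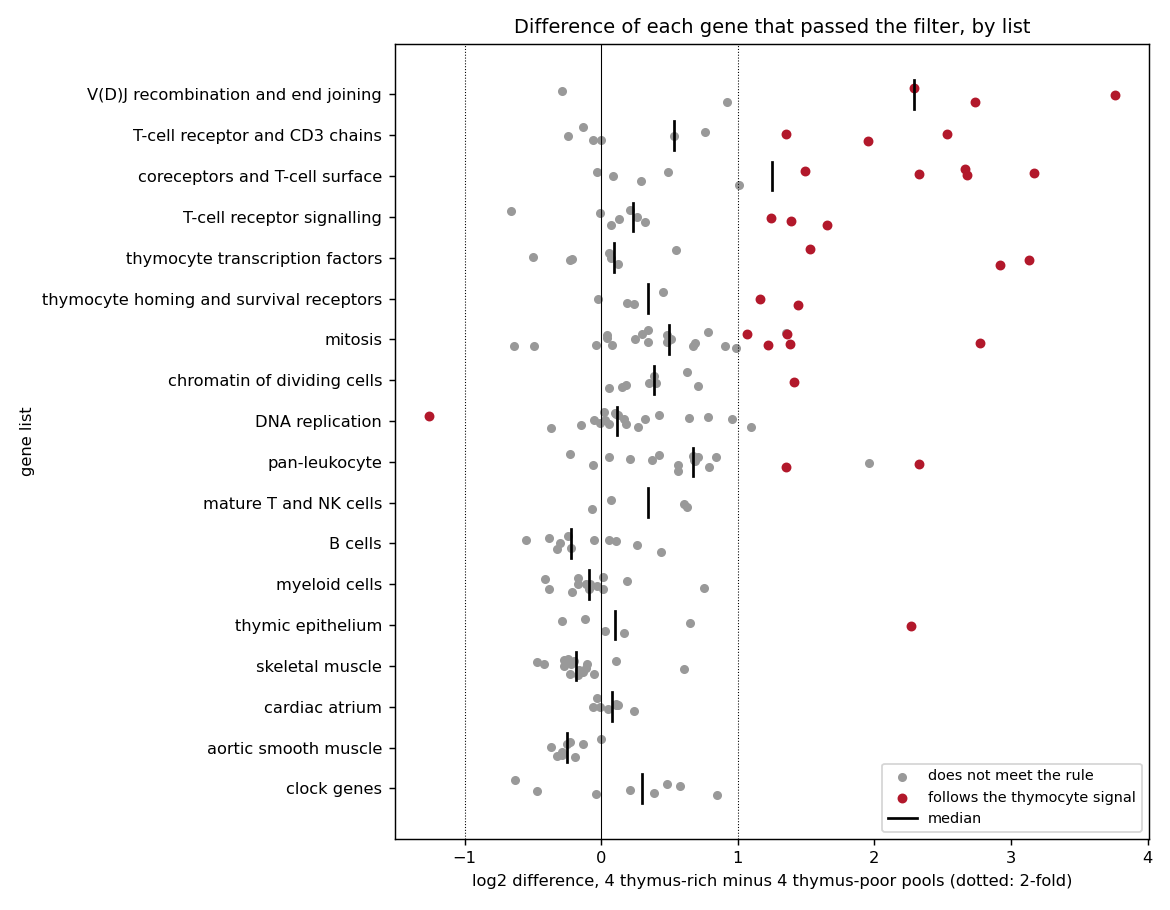
Log2 difference between the 4 thymus-rich and 4 thymus-poor pools for each gene that passed the filter, by gene list, with 1 point per gene, red where the gene followed the signal by the rule, a black bar at the median of the list and dotted lines at 2-fold. Points of the V(D)J list reach 3.76, the mitosis list has a median of 0.50, and no gene of the B-cell, myeloid or muscle lists is red.

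Outside the fixed lists stood 26 of the 53 higher genes. Several have known parts in nucleotide supply or cell division: Pclaf, a partner of PCNA (difference 1.83), Cdca7, a target of MYC (1.77), Dck, the kinase that salvages deoxynucleosides and is abundant in lymphoid tissue (1.65), Ccnd3, a D cyclin prominent in lymphocytes (2.84-fold), and Kpna2, a nuclear import receptor (1.29). Dck read 287, 332, 380.1 and 201 in the rich pools and 59.7, 130.1, 93.1 and 104 in the poor ones, well apart. Ccnd3 read 141, 184, 325 and 199 against 81.4, 117, the floor and 73.9, and its lowest rich pool was above its highest poor pool by a small margin.

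Some of the other higher genes were as follows. Arhgap45, a GTPase-activating protein, read 117, 326, 357 and 139.9 in the rich pools, the floor in 3 poor pools and 47.4 at CT50 (2.42). Cytip, a leukocyte protein that binds cytohesin, had 1.35 and Rassf5, a regulator of lymphocyte adhesion, 1.42. H2-Q1, by a probe set that may read other class I genes, had 1.57. Lbr, the lamin B receptor of the nuclear envelope, read 387 to 491 against 107 to 217. In each of these the sets were separate by the rule.

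A few of the 53 were irregular across the pools. Sfrp4, a secreted inhibitor of Wnt signalling, read 104 to 201 in the rich pools but 79.9 at CT26, one of the pools with the least thymocyte signal, and the floor in the other poor pools. Sspo read 43.7 to 171 in the rich pools and its highest value, 344, at CT46. Muc1, an epithelial mucin, read 65.9 to 177 against the floor to 63.8. On the 2 CT18 arrays, Sspo differed by 2.02 (log2), the most of the 53.

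Higher probe sets that have no single gene numbered 6, of which 5 are not in the annotation table and 1 reads several histone H2A genes. The unlisted probe set with the largest difference read 1346, 1785, 2082 and 1173 in the rich and 47.7, 447, 50.8 and 465 in the poor pools at CT26, CT34, CT42 and CT50, a difference of 3.38. The profile resembles that of Rag1 in its order of poor pools.

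Only 4 genes were lower in the rich pools by the rule, 8 to 16 when any 1 of the 8 pools was left out, and none is in a list of tissue markers. Pacsin1, a protein of vesicle uptake, read 36.8, 85.7, the floor and the floor at CT18, CT38, CT54 and CT62 against 113, 164, 131 and 125 at CT26, CT34, CT42 and CT50 (-1.54). Ccne1, cyclin E1, owed its size to 1 pool, with the floor at CT38, 260.3 to 349.9 in the other rich pools and 397 to 476 in the poor pools (-1.26). Sdc2, a syndecan, read 94.1 to 180.3 against 222 to 272 (-1.12), and Tbxas1, thromboxane synthase, 78.6 to 164 against 258 to 277 (-1.10). The 2 CT18 arrays disagreed for both, with 241 and 36.7 for Sdc2 and 299.5 and 46.8 for Tbxas1, so on array 1 alone both genes overlapped the poor pools and only 2 genes were lower.

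Markers of other tissues and blood cells were read beside the thymocyte genes. For B cells 0 of 11 genes past the filter met the rule (median -0.22), for myeloid cells 0 of 13 (-0.09), for MHC class II 0 of 7 (0.10), for mature T and NK cells 0 of 4 (0.34), for lymph node stroma 0 of 3 (-0.39) and for erythroid cells 0 of 3 (-0.15). Of the pan-leukocyte genes 2 of 17 met it, Ptprc and Cytip, with a median of 0.67 and 15 of 17 above 0. Coro1a, a leukocyte actin-binding protein, had the next largest difference, 1.96, but overlapped because CT50 read 237 against 191 at CT18. Since 0.937% of all genes met the rule upward, a count of 0 in lists of this size does not set them apart from other genes.

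Skeletal muscle varied several-fold between the pools without separating the sets. Its summed intensity over 16 genes was 32648 at CT18, 14447 at CT38, 8798 at CT54 and 16566 at CT62, against 10527 at CT26, 40926 at CT34, 15569 at CT42 and 17043 at CT50. CT18 was thus the highest rich pool and CT34 the highest poor pool. Atrial muscle was highest at CT38 (17439) and CT42 (18858), again 1 of each set, with 9212 to 11267 in the other 6 pools. No gene of the muscle (0 of 16) or atrial list (0 of 8) met the rule. With 0.937% of all genes higher and 0.0707% lower by the rule, these counts say little about lists of this size.

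Smooth muscle of the aortic wall ran slightly lower in the rich pools. Its summed intensity was 13457 to 14518 in the rich and 14999 to 19852 in the poor pools without overlap, highest at CT26, and 0 of 9 genes met the rule, with a median of -0.25. Cnn1, calponin, read 698 to 850.5 against 851 to 1126 (-0.37). Genes of matrix (0 of 10, median -0.21), endothelium (0 of 11, -0.07), fat (0 of 11, -0.04) and Schwann cells (0 of 4, -0.11) did not meet it either. Of all genes 0.937% met the rule upward and 0.0707% downward, so counts of 0 do not set these lists apart. Every array had the same trimmed mean, so values are read as shares of the whole signal. The part of smooth muscle content in the differences of thymocyte genes was not tested.

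**Figure D4:**
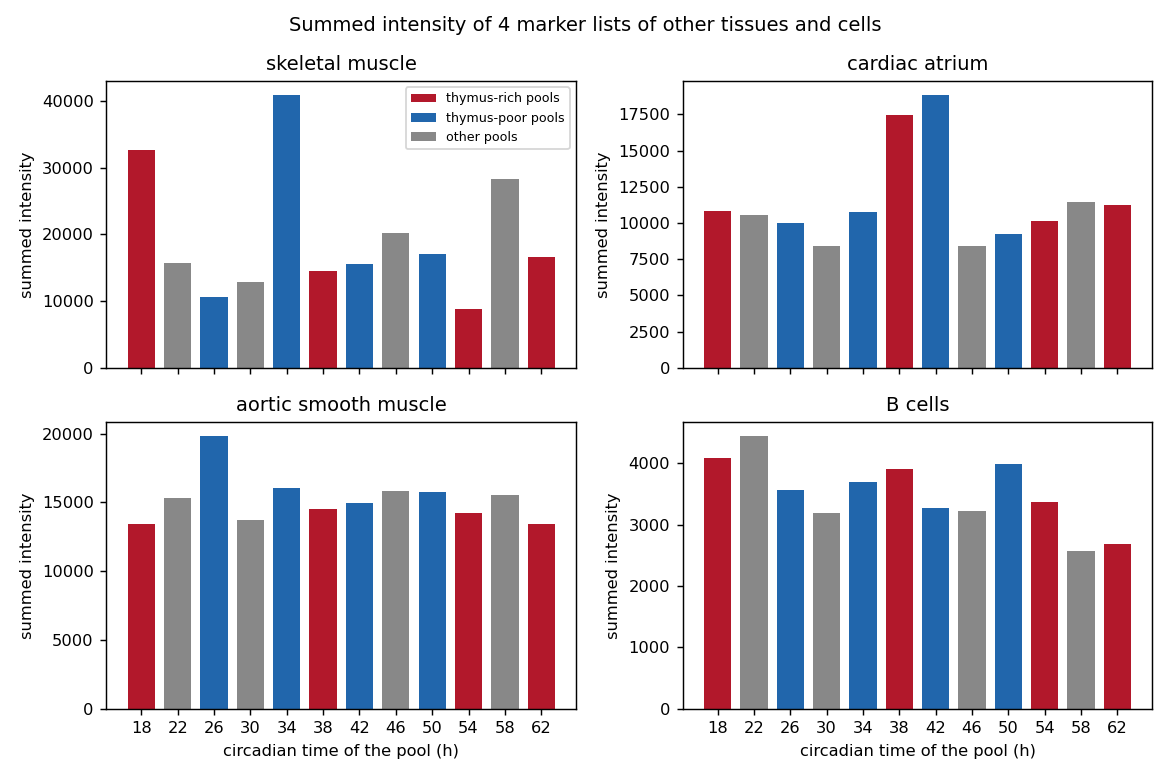
Summed intensity of the skeletal muscle, cardiac atrium, aortic smooth muscle and B-cell marker lists in each of the 12 pools against circadian time in hours, with bars from 0, thymus-rich pools in red, thymus-poor in blue and other pools in grey. Skeletal muscle is highest at CT34 and CT18, the atrial list at CT42 and CT38, and the smooth muscle list at CT26.

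The order of the pools varied among the 53 genes. CT54 was the highest rich pool for 27 of them, CT38 for 15, CT18 for 9 and CT62 for 2, and CT62 was the lowest rich pool for 36. The lowest poor pool was CT26 or CT42 for 51 genes (ties at the floor included), and 21 were at the floor in both. Of the pools left out, CT30 exceeded every poor pool for 47 genes and exceeded CT62 for 31, and CT58 exceeded every poor pool for 34. Part of this order is fixed by the rule that chose the genes.

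CT18 and CT42 fall at the same circadian hour, a day apart, and lie in different sets. The rule fixes that all 53 genes were higher at CT18 than at CT42, so this count shows nothing further; the gap was at least 2-fold for 47 of them. Rag1 read 1199 and the floor, and Thy1 778 and the floor. CT18 and CT42 also differed in skeletal muscle (32648 and 15569) and atrial muscle (10818 and 18858). Each is 1 pool, and what sets them apart was not tested.

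The pair of CT18 arrays gives the only repeated measurement of a time point, and whether both read the same pool is not stated. Over all genes the median absolute difference between them was 0.18 (log2) and the 95th percentile 1.12. For the 53 higher genes the median was 0.18 as well, and 45 of them were above every poor pool on both arrays. Rag1 read 1152 and 1249 on the arrays, a small gap beside its range over the pools.

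The 4 pools outside the contrast had no part in the rule of overlap and fold that picked the 53 genes. They did count in the filter on mean intensity and in the choice of the brightest probe set of each gene. Their marker levels were also used when the pools were ranked. The slopes in these pools are therefore not fully independent of the choice of genes. In CT22, CT30, CT46 and CT58 each gene was regressed on the mean log2 intensity of the 4 markers, which ran from 7.70 at CT58 to 8.95 at CT30. Apart from the markers, 42 of 49 higher genes (85.7%) had a slope above 0, against 59.2% of all genes. The median slope was 0.63 for these genes, in log2 units per log2 unit of the markers, against 0.10 for all genes. This excess rested largely on CT30: without that pool the count was 31 of 49 (63.3%) against 57.3% of all genes, and without each of the others it was 40 or 41. With an index made from the T-cell receptor and CD3 genes it was 35 of 49 (71.4%) against 57.6%. The genes were measured in the same 4 pools and are not independent of each other.

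No single gene passed the test of this slope. With 4 pools and 2 residual degrees of freedom, 0 of 7453 probe sets had an adjusted p under 0.05 in limma, and the lowest adjusted p was 0.536. At an unadjusted p under 0.05 there were 658 probe sets, 385 of them with a slope above 0, and 10 of the 49 genes. Smc4 had a slope of 0.71 ± 0.21 (SE), Myb 0.90 ± 0.27 and Rassf5 1.44 ± 0.46, each with an adjusted p of 0.536. Smc4 read 377, 542, 343 and 293 at CT22, CT30, CT46 and CT58, and Myb 232, 437, 238 and 203, both highest at CT30. Sfrp4 had the lowest slope, -1.17. The 4 genes lower in the rich pools also had slopes above 0, so they did not run opposite to the markers in these pools. Skeletal muscle was lowest of the 4 at CT30 (12783) and highest at CT58 (28286), the reverse of the markers, and its part in these slopes was not tested.

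**Figure D5:**
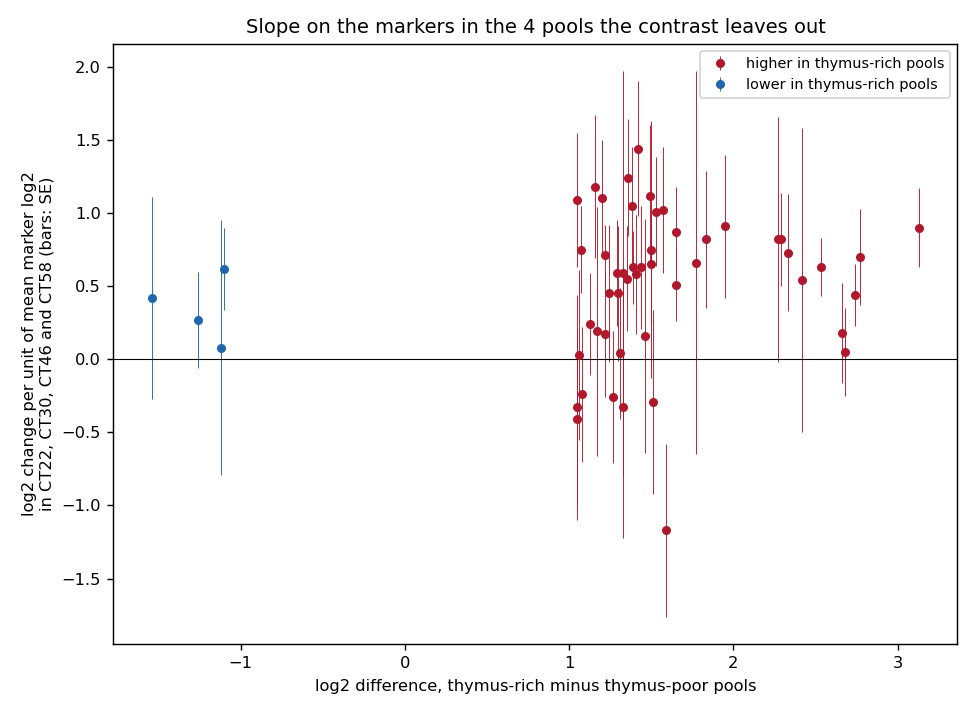
Slope of log2 intensity on the mean log2 of the 4 markers in the pools outside the contrast (CT22, CT30, CT46 and CT58; bars are SE of the fit) against the log2 difference between the thymus-rich and thymus-poor pools, with 1 point per gene, for 49 higher genes in red and 4 lower genes in blue. Of the red points 42 lie above 0, and so do all 4 blue points.

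A 24-h rhythm was then tested for these genes over all 12 pools, since the series was designed to find rhythms. Of the 53 higher genes 0 passed (lowest adjusted p = 0.559 in limma), while 22 of all 5655 genes (0.389%) passed. An unadjusted p under 0.05 was found for 0 of the 53, against 9.96% of all probe sets. The rule that chose the genes sets CT18 apart from CT42, which fall at the same circadian hour, and this works against a 24-h fit. It also sets CT38 and CT62, which share an hour, apart from CT26 and CT50, which share another, and this works towards one. The counts are therefore not independent of the choice of genes. The smallest p values belonged to Wipf1, a regulator of actin in blood cells (amplitude 0.62 ± 0.24, SE, peak at CT11.4, adjusted p = 0.559), Ccnd3 (0.76 ± 0.30, CT8.9, adjusted p = 0.563) and Ilvbl (0.58 ± 0.23, CT8.8, adjusted p = 0.565). For Rag1 the amplitude was 0.84 ± 0.66 (adjusted p = 0.816). None of the 4 lower genes passed (lowest adjusted p = 0.523). A p that misses the threshold in 12 pools does not show that a rhythm is absent.

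Of 8 clock genes measured, 0 met the rule, which 0.937% of all genes met upward, so that the count says little about a list of this size. They had a median difference of 0.30 and differences from -0.63 to 0.85. Their summed intensity was 1365 to 2163 in the rich and 1318 to 2351 in the poor pools, which overlapped. The sets are not balanced over circadian time, so the clock and the thymocyte signal cannot be told apart at hours 2 and 14.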

How the data were processed

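Expression was measured in 12 pools of mouse aortae on 13 one-colour arrays. The values the authors deposited are linear intensities, 1 for each probe set on each array, and all arrays had a trimmed mean of 200.2 (2% cut at either end). Their software and scaling steps are not given in the sources. Of 12488 probe sets 66 controls were left out. In the platform annotation, 10833 of 12422 remaining probe sets had a single gene, 396 had several and 1193 were unlisted. Gene identifiers were matched to RefSeq for GRCm38.p6, which did not hold 16 of them.

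Intensities were set to a floor of 36.7 (20th percentile of positive values), log2-transformed, and filtered on the mean over the pools (40th percentile, log2 of 5.60). This left 7453 probe sets and 5655 genes, each gene by its brightest probe set. Rich minus poor differences had no test. Slopes and 24-h cosines used limma 3.58.1 under R 4.3.3 (lmFit, eBayes with trend, 2 and 9 residual degrees of freedom) and adjusted by Benjamini-Hochberg over the probe sets kept. p-values measure the spread of single pools around the fit. The contrast, slope and cosine steps were tested on simulated data, and the other steps were not. Other tools were Python 3.11.15, pandas 2.3.3 and numpy 2.4.6.

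The members, gene lists and rules were chosen with earlier results of these data known. Named are every measured marker, receptor and recombination gene, the 20 highest and 10 lowest followers, up to 4 followers of each other list or its most different gene, and the 3 smallest p of each test. Further genes are named beyond this rule to show list members that did not follow, after their values were seen. Alternatives were other floors, filters, scalings and folds, each CT18 array alone, the mean of all probe sets of a gene, leaving out pools, muscle as a covariate and another marker index. The number of arrays limits the precision.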

Additional observations from a re-analysis of the deposited data

Results flagged for a closer look

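In 4 of 112 sets of 4 pools examined, 1 pool stood apart from the other 3 by a gap, relative to the range of the set, above Dixon's critical value for 4 values. Chance flags about 1 in 20 such sets. Wipf1 was low at CT18 among the rich pools, at 90.2 against 132 to 141. Prkcb was low at CT62, at 164 against 297 to 330.2 in the other rich pools. Sdc2 was high at CT54, at 180.3 against 94.1 to 97.2 in the other rich pools, although the CT18 value of 94.1 is the mean of arrays at 241 and 36.7, and array 1 exceeds CT54. Nppa, the atrial natriuretic peptide gene, was high at CT42, at 989 against 216 to 251 in the other poor pools, the pool that was also highest in the summed atrial list.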

How the results depend on the processing

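The 53 higher and 4 lower genes depended most on the filter, the fold and the pools used. With the filter at the 60th percentile 18 of 3949 genes were higher, all among the 53, against 53 of 5655 as reported. The rest of the 53 had a mean intensity below this stricter filter. Of the genes still higher, apart from the markers, 14 of 15 had a slope above 0 in the pools outside the contrast. At 1.5-fold 101 were higher and 19 lower, and at 3-fold 19 were higher and 0 lower. Fewer pools let more genes separate: leaving out 1 pool gave 51 (without CT54) to 67 (without CT62) higher and 8 (without CT54 or CT62) to 16 (without CT42) lower genes, and leaving out CT18 and CT34, the pools highest in muscle, gave 76 higher, 50 of them among the 53, and 23 lower. With CT18 array 1 alone 2 were lower. Without CT26 and CT42, an alternative chosen after seeing the data, 71 were higher, 44 of them among the 53, and 36 lower, and Rag1 differed by 2.44 in place of 3.76. The share of higher genes among those that met the rule was 93% as reported and 66.4% without these pools. All 1044 values of the 57 genes under these alternatives kept their direction, and 56 moved by more than 1 SD. Where pools were left out or the filter changed, the rule that chose these genes fixed the direction in advance. Floors gave 36 to 56 higher genes and other scalings 48. In the 11 slope fits and 19 rhythm fits tried in place of the main ones, 0 of the higher genes passed. For the rhythm fits this count is not independent of the rule that chose the genes. Of 49 genes, 31 had a slope above 0 without CT30 and 40 to 41 without each other pool. Genes at or near the floor, single pools and the absence of replicate pools limit every difference.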

Other observations

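Further genes of the 53 encode proteins of RNA handling and transcription, groups not fixed as lists and not tested as such. Hnrnpm, a splicing factor, read 295, 263, 387 and 311 in the rich pools and 134, 261, 56.8 and 139 at CT26, CT34, CT42 and CT50, so that CT38 and CT34 almost met (difference 1.27). Sfpq, another RNA-binding protein, read 85.2 to 149.9 against 41.8 to 83.4 (1.08). Fubp1, which binds single-stranded DNA upstream of Myc, read 115 to 193 against 50.2 to 85.6 (1.22). Another Fubp1 probe set that passed the filter overlapped, with a difference of 0.45. Nfyb, a subunit of the CCAAT-binding factor, read 116 to 154 against the floor to 71.3 (1.31). Bach1, a repressor that responds to haem, was just inside the limit at 85.4 to 138 against the floor to 79.3 (1.05). Of these 5, Hnrnpm, Sfpq and Bach1 had slopes below 0 on the markers in the pools outside the contrast (-0.26, -0.24 and -0.41), and Nfyb was at 0.04 and Fubp1 at 0.17.

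Endou, an endoribonuclease, and Ube2f, a conjugating enzyme of NEDD8, were at the floor in all 4 poor pools and read 67 to 151 and 56.3 to 109.6 in the rich pools. D17H6S56E-5 read 100.1 to 262 against 36.8 to 70.3 (1.30). Ltbp3, which binds latent TGF-beta, read 71.6 to 182 against 42.4 to 71.5 (1.17), with CT18 and CT34 almost equal. Cdca7 read 116 to 160.2 in the rich pools and 566 at CT46, a pool outside the contrast in which Sspo also had its highest value.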
